A study of Mus musculus with 10 samples.

Results

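The genes described here encode MHC class I molecules, the peptide display proteins found on the surface of most nucleated cells. They are the heavy chain genes H2-K1, H2-D1, H2-T23, H2-T22, H2-T10, H2-T24, H2-Q4, H2-Q7 and H2-M3 and the light chain gene B2m, 10 genes in all, taken by symbol from a count table of 77175 entries. All 10 were among the 15526 entries with enough counts to be tested. The samples are the mouse melanoma line B16-F10 (called WT below), profiled by sequencing of bulk RNA, and B16-F10-OVA (called OVA), the same line carrying the lentiviral construct pLV[Exp]-Neo-EF1A>{ovalbumin}, in which the EF1A promoter drives ovalbumin, a model antigen. Each line was left untreated (2 libraries) or kept in interferon gamma (IFN-γ) at 50 ng/ml for 24 h (3 libraries), 10 libraries in all, and the study asked whether the lines respond differently. The labels do not say whether the OVA line is a clone or a pool, and with 1 line of each kind the transgene and any other difference between the lines cannot be told apart.

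A class I molecule is a heavy chain folded around a short peptide and paired with beta-2 microglobulin, the product of B2m, without which most heavy chains do not reach the surface. The classical heavy chains H2-K and H2-D show peptides from the cell's own proteins to CD8+ T cells, while the non-classical chains of the H2-Q, H2-T and H2-M regions have narrower tasks. IFN-γ acts through IRF1 and through the transactivator NLRC5 to raise transcription of class I genes, and B16 melanoma is known for low surface class I that this cytokine raises. H2-Kb, the H2-K1 allele of the C57BL/6 strain from which B16 came, is the molecule that presents the best known ovalbumin peptide.

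Promoter sequences are shown for the 2 classical heavy chains, for H2-Q7, the only gene of the 10 that IFN-γ did not raise by the test, for the non-classical chains H2-T23 and H2-T22 and for the light chain. They come from RefSeq on build GRCm38.p6 and cover 250 bases before to 50 bases after the annotated start, 5′ to 3′ on the gene's strand. H2-K1 lies at chr17:34000298-34000597 (minus strand, the first of its 2 starts), H2-D1 at chr17:35262844-35263143 (plus), H2-Q7 at chr17:35438905-35439204 (plus), H2-T23 at chr17:36032652-36032951 (minus), H2-T22 at chr17:36042693-36042992 (minus) and B2m at chr2:122147437-122147736 (plus). Capitals mark matches, on either strand, to an interferon regulatory factor core (GAANNGAAA), to the longer interferon-stimulated response element (GAAA and GAAA with any 2 bases between) and to an NF-kB motif (GGG, any 2 bases, TT, any base, CC).
H2-K1: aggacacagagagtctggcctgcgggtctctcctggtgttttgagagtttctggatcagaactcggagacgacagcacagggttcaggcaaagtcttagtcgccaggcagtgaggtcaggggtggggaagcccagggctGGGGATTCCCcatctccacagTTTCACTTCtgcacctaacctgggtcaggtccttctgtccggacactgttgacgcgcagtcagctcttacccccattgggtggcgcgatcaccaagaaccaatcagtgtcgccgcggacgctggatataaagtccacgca
H2-D1: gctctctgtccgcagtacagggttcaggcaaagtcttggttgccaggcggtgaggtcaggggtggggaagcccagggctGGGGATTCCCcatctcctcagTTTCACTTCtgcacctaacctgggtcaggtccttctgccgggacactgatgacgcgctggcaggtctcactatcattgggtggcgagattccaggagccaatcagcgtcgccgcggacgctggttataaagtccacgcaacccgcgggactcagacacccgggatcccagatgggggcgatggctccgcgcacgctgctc
H2-Q7: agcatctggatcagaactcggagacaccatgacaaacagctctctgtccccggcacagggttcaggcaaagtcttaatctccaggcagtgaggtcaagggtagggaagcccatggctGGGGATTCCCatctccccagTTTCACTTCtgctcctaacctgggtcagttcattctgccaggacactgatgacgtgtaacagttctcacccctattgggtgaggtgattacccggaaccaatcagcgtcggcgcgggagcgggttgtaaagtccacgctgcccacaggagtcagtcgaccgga
H2-T23: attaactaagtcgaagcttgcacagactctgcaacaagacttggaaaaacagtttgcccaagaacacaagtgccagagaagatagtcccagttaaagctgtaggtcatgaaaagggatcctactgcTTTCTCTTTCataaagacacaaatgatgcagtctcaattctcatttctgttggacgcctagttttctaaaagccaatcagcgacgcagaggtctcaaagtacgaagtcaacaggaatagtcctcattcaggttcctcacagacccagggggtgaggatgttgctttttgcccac
H2-T22: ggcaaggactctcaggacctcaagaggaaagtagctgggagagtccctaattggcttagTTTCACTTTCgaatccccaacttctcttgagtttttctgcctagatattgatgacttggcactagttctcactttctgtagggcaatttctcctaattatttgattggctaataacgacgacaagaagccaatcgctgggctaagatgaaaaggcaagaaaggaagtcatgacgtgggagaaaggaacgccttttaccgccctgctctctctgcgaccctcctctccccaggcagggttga
B2m: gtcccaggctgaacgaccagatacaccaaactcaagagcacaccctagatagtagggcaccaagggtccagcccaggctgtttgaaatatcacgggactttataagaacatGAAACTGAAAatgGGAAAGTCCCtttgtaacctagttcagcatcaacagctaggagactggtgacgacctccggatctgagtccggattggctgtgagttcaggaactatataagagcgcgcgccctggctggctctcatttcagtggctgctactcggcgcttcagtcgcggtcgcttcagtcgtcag

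All 8 genes with a promoter in the table held the core or the longer element, which 10.4% of the 32851 promoters of the same length hold. The core stood as TTTCACTTC in H2-K1, H2-D1, H2-Q4, H2-Q7 and H2-M3, with its first base at position −90, −150, −153, −113 and −101 from the start, and 7.52% of all promoters hold it. The longer element stood in B2m (GAAACTGAAA), H2-T23 (TTTCTCTTTC) and H2-T22 (TTTCACTTTC), against 3.44% of all promoters. The NF-kB motif stood in B2m, H2-K1, H2-D1, H2-Q4 and H2-Q7 (4.79% of all promoters), and overlapped none of the interferon matches. A gamma-activated site (TTCNNNGAA, 8.30% of all promoters) was found in H2-M3 only. The promoters of the K, D and Q genes are close relatives: H2-K1 and H2-D1 were identical at 88.3% of aligned bases, H2-K1 and H2-Q7 at 86.6%, and H2-Q4 and H2-Q7 at 87.3%. H2-T10 and H2-T24 had no entry.

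The libraries held 17728722 to 19642533 counts. The 7 melanocyte markers summed to between 23095.5 and 24499.7 CPM (counts scaled to library size with TMM factors) in every library, with none at 0, as the melanoma label says. Of 14 leukocyte markers, 9 had no counts in untreated WT and 9 in untreated OVA, not all of them the same genes, and 7 (WT) and 8 (OVA) had none after treatment. Their sum ran from 1.89 to 3.08 CPM untreated and from 3.02 to 4.63 CPM treated. Ptprc and Cd3e, which define leukocytes and T cells, had no counts in any group, and Cd68, the only one of the 14 with enough counts to be tested, went from 1.92 to 3.36 CPM in WT and from 1.80 to 2.93 CPM in OVA. In bulk RNA, fewer cells of a type and less RNA per cell cannot be told apart. The labels do not say that replicates were separate cultures, so p-values measure the spread between these libraries, which may be technical.

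IFN-γ raised 9 of the 10 class I genes in each line, and lowered none. The count of 0 lower held for edgeR at an unadjusted p under 0.05, for DESeq2 and for limma-voom, 0 each in both lines. The 10 genes together went from 0.0242% and 0.0230% of all counts in untreated WT to 0.395%, 0.400% and 0.409% after treatment. In OVA they went from 0.0219% and 0.0230% to 0.398%, 0.399% and 0.408%. By edgeR's quasi-likelihood test (adjusted p under 0.05), 24.5% of all tested genes were called higher in WT and 25.9% in OVA, and 19.7% and 22.9% lower. At 2-fold or more those shares were 4.93% and 5.29%, and the 9 called members all passed that bound in both lines. The median log2 change of the 10 genes was 4.26 in WT and 4.33 in OVA, against 0.011 and 0.0018 over all tested genes. Treated libraries were above every untreated library for 10 of 10 genes in WT, where 33% of all tested genes did so, and for 9 of 10 in OVA, against 34%.

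**Figure D1:**
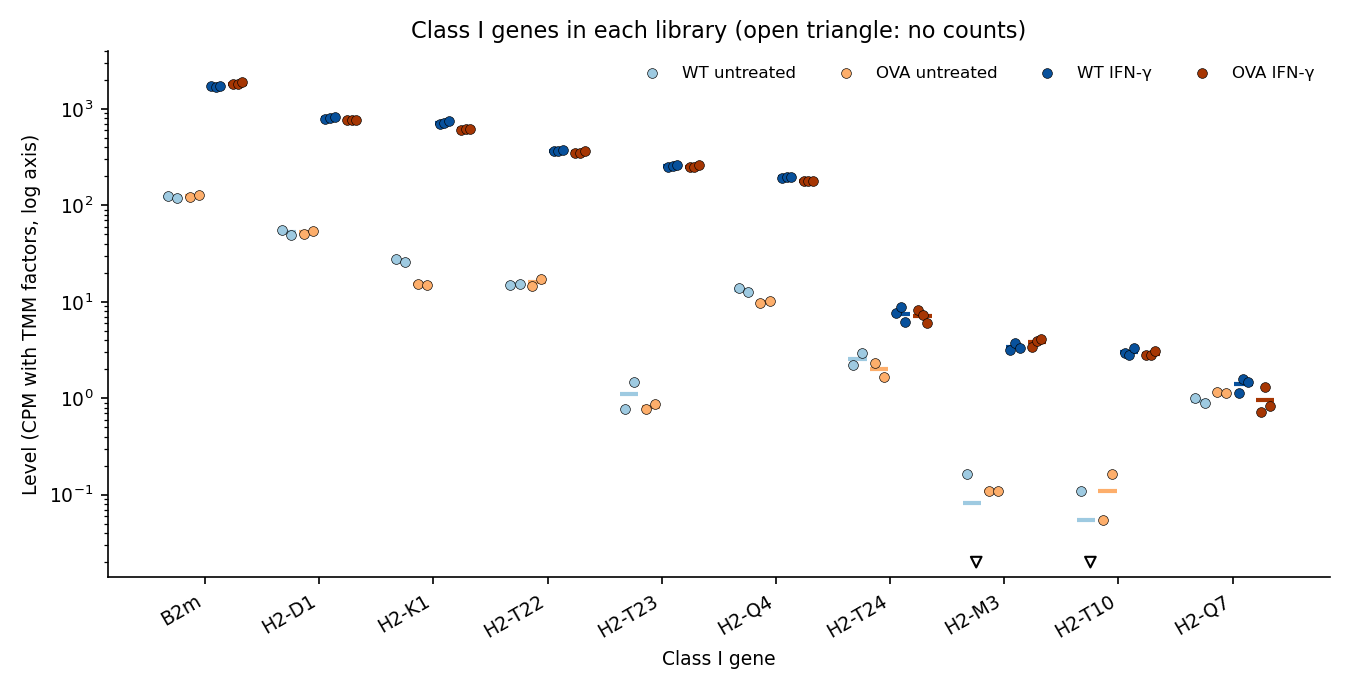
Level of each class I gene in every library, in CPM with TMM factors on a log axis; points are libraries, short lines are group means, colours are the 4 groups and open triangles mark libraries with no counts. The other 9 genes are separated by treatment in both lines, B2m is the highest in all groups, and H2-Q7 stays between 0.728 and 1.60 CPM throughout.

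H2-K1, the first of the classical heavy chains, stood at 27.9 and 25.6 CPM in untreated WT and at 696, 713 and 745 CPM in treated WT. In OVA it stood at 15.3 and 14.9 CPM untreated and at 609, 624 and 616 CPM treated. Its 4 groups did not overlap, and OVA lay below WT in both conditions. The log2 change was 4.75 in WT (SE 0.049, adjusted p = 1.96e-21) and 5.35 in OVA (SE 0.059, adjusted p = 1.22e-21), or 26.8-fold (95% interval 25.0 to 28.8) and 40.8-fold (37.4 to 44.5). H2-D1, the other classical heavy chain, stood at 55.4 and 49.6 CPM in untreated WT and at 781, 795 and 815 CPM after treatment. In OVA the values were 50.9 and 53.9 CPM, then 757, 774.1 and 774.0 CPM. The untreated lines overlapped for H2-D1, and its treated OVA libraries lay just under the treated WT ones. It rose 15.2-fold in WT and 14.7-fold in OVA, with log2 changes of 3.92 (SE 0.043) and 3.87 (SE 0.043).

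B2m, the shared light chain, stood at 124 and 119.7 CPM in untreated WT and at 1724, 1698 and 1744 CPM in treated WT. The OVA libraries held 123 and 129 CPM, then 1794, 1799 and 1880 CPM. The untreated lines overlapped and the treated OVA libraries were above the treated WT ones. Its log2 changes of 3.82 (SE 0.033) and 3.86 (SE 0.033), 14.1-fold and 14.5-fold, were close to those of H2-D1. Per kilobase of exon, B2m went from place 235 to place 11 among 14288 tested genes in WT, and from 226 to 11 in OVA.

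H2-T23 had the highest fitted change of the 10 genes in both lines, but in WT its place over H2-T10 and H2-M3 rested on 1 library: without WT untreated replicate 1, which leaves those genes at no untreated counts, the fitted log2 changes were 7.45, 8.80 and 8.97. It encodes the heavy chain of Qa-1, which displays leader peptides of other class I chains to NKG2A on natural killer and T cells. It stood at 0.773 and 1.46 CPM in untreated WT (14 and 26 counts) and at 252, 254 and 261 CPM after treatment. In OVA it went from 0.767 and 0.865 CPM (14 and 16 counts) to 249.7, 248 and 259 CPM. The untreated lines overlapped, as did the treated ones. The log2 change was 7.83 in WT (SE 0.21) and 8.26 in OVA (SE 0.24), or 228-fold (95% interval 168 to 310) and 306-fold (216 to 435). Among all tested genes its rise held place 80 in WT and place 70 in OVA, while H2-K1 held places 220 and 177 and B2m places 264 and 262.

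H2-T22 and H2-T10 encode chains that carry no peptide and are known as ligands of gamma delta T cells. H2-T22 stood at 15.1 and 15.3 CPM in untreated WT and at 363, 369 and 374 CPM after treatment, and in OVA at 14.5 and 17.3 CPM, then 347, 352 and 366 CPM. It rose 24.2-fold in WT and 22.4-fold in OVA, and the lines overlapped in both conditions. H2-T10 was far lower, with 2 and 0 counts in untreated WT and 54, 55 and 64 counts after treatment. In OVA it had 1 and 3 counts, then 50, 50 and 55. From 2 counts summed over untreated WT the ratio was 54.6 (95% counting interval 14.9 to 454), and from 4 counts in OVA it was 26.6 (10.2 to 98.8). Counting intervals cover counting error only. The fitted H2-T10 change passed the test in both lines (adjusted p = 4.96e-08 and 1.06e-07), and its size rests on those few untreated counts.

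H2-M3, which presents peptides with a formylated first residue, had 3 and 0 counts in untreated WT and 58, 73 and 64 counts after treatment. The OVA libraries held 2 and 2 counts, then 61, 69 and 74. The ratios of summed counts were 41.0 in WT (95% counting interval 13.8 to 201) and 35.0 in OVA (13.5 to 129.6). The fitted H2-M3 changes, 38.0-fold and 33.0-fold, passed the test (adjusted p = 3.33e-08 and 2.06e-08). Their size rests on those few untreated counts. H2-T24 rose less than the other 8 genes called: it stood at 2.21 and 2.91 CPM in untreated WT and at 7.63, 8.75 and 6.23 CPM after treatment, a 2.94-fold change (95% interval 2.17 to 4.00). In OVA it went from 2.30 and 1.68 to 8.17, 7.25 and 5.97 CPM, 3.58-fold (2.57 to 4.98).

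The H2-Q genes split. H2-Q4 stood at 13.9 and 12.5 CPM in untreated WT and at 194, 195.1 and 194.7 CPM after treatment. In OVA it went from 9.64 and 10.1 to 177.0, 177.6 and 179 CPM, below WT in every library of the same condition. The changes were 14.7-fold in WT and 18.0-fold in OVA. H2-Q7, one of the genes that encode Qa-2, stood at 0.994 and 0.896 CPM in untreated WT and at 1.14, 1.60 and 1.47 CPM in treated WT. In OVA it stood at 1.15 and 1.14 CPM, then at 0.728, 1.29 and 0.836 CPM. Its log2 change was 0.57 in WT (SE 0.32, 95% interval −0.12 to 1.25, adjusted p = 0.169) and −0.26 in OVA (SE 0.33, −0.95 to 0.43, adjusted p = 0.537), so that a rise above 2.38-fold in WT lay outside the interval. These values rest on 13 to 31 counts per library. Its promoter, printed above, holds the same interferon and NF-kB letters as those of H2-K1 and H2-D1.

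**Figure D2:**
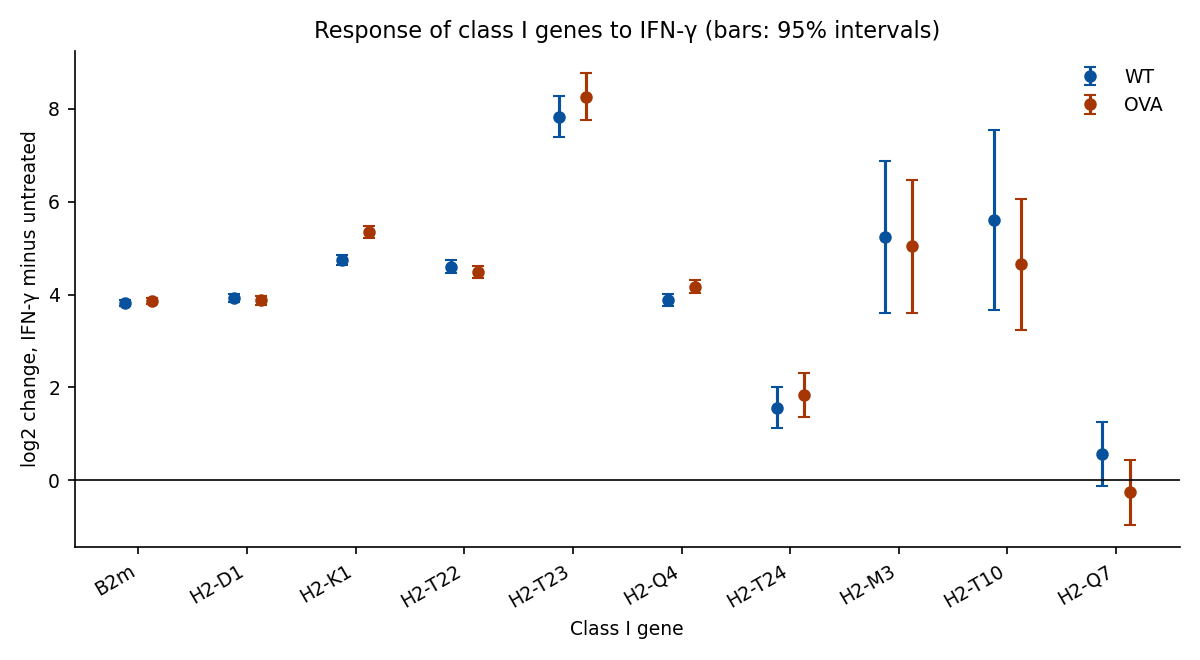
Log2 change of each class I gene with IFN-γ in WT (blue) and OVA (brown); points are fitted changes and bars are 95% intervals. H2-T23 has the highest point in both lines, at 7.83 and 8.26, H2-Q7 spans 0 in both, and the intervals of the lines stand apart for H2-K1 (4.75 and 5.35) and for H2-Q4 (3.88 and 4.17). The edgeR test of the difference of responses called H2-K1 but not H2-Q4 (adjusted p = 0.229).

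Levels of different genes were compared per kilobase, with exon lengths of GENCODE M21 on GRCm38, since the deposited table gives none. In untreated WT the order was B2m at 142 ± 3.44 CPM per kb (mean ± SD, n = 2), H2-D1 at 20.4 ± 1.58, H2-K1 at 9.10 ± 0.549, H2-Q4 at 5.08 ± 0.372, H2-T22 at 4.46 ± 0.0571, H2-T24 at 1.17 ± 0.228, H2-T23 at 0.386 ± 0.167 and H2-Q7 at 0.222 ± 0.0162, with H2-M3 and H2-T10 last at 0.0576 and 0.0161 and overlapping. In treated WT it was B2m at 2002 ± 26.8 CPM per kb (n = 3), H2-D1 at 309 ± 6.65, H2-K1 at 244 ± 8.49, H2-T22 at 108 ± 1.63, H2-T23 at 88.4 ± 1.57, H2-Q4 at 74.9 ± 0.314, H2-T24 at 3.45 ± 0.579, H2-M3 at 2.38 ± 0.218, H2-T10 at 0.888 ± 0.0811 and H2-Q7 at 0.328 ± 0.0555. H2-T23 thus moved from behind H2-T24 to ahead of H2-Q4, and H2-Q7 became the lowest. In untreated OVA H2-T22 (4.64 ± 0.579 CPM per kb) came before H2-Q4 (3.80 ± 0.129), and H2-T23 (0.283 ± 0.0241) overlapped H2-Q7 (0.268 ± 0.00239). The other untreated OVA levels were 146 ± 5.36 for B2m, 20.3 ± 0.833 for H2-D1, 5.14 ± 0.111 for H2-K1, 0.911 ± 0.202 for H2-T24, 0.0757 for H2-M3 and 0.0317 for H2-T10. Treated OVA had the order of treated WT, with B2m at 2121 ± 56.1 CPM per kb, H2-D1 at 298 ± 3.72, H2-K1 at 209.8 ± 2.51, H2-T22 at 104 ± 2.90, H2-T23 at 87.3 ± 2.09 and H2-Q4 at 68.5 ± 0.356. There H2-T24 (3.27 ± 0.508) and H2-M3 (2.65 ± 0.251) overlapped, and H2-T10 and H2-Q7 stood at 0.846 and 0.223. The places of H2-Q4 against H2-T22 in untreated WT, and of H2-K1 against H2-T22 and H2-T23 against H2-Q7 in untreated OVA, turned when read counts were not divided by length. That of H2-D1 against H2-K1 in treated WT turned with the longest transcript as length.

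The make-up of the signal of the 9 heavy chains shifted with treatment. Of the CPM per kb summed over the 9 heavy chains, H2-D1 took 49.8% ± 1.22 in untreated WT and 37.2% ± 0.0298 after treatment, while H2-K1 went from 22.3% ± 0.164 to 29.4% ± 0.378. In OVA H2-D1 went from 57.3% ± 0.298 to 38.5% ± 0.138, and H2-K1 from 14.5% ± 0.834 to 27.1% ± 0.274. H2-T23 went from 0.957% to 10.6% in WT and from 0.795% to 11.3% in OVA, and H2-Q4 from 12.4% to 9.01% and from 10.7% to 8.84%. The classical pair together held 72.1% ± 1.38 of the signal in untreated WT, 66.5% ± 0.367 in treated WT, 71.8% ± 0.536 in untreated OVA and 65.6% ± 0.401 in treated OVA. These shares are of the 9 chains only. H2-T15, a further heavy chain entry with 54.7 CPM in untreated WT and 21.7 CPM in treated WT, is not in the sum. With it the untreated shares would be lower, and shares with it were not computed. The falls of H2-D1, of H2-Q4 and of the classical pair thus hold among the 9 chains, and may turn into rises with H2-T15.

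**Figure D3:**
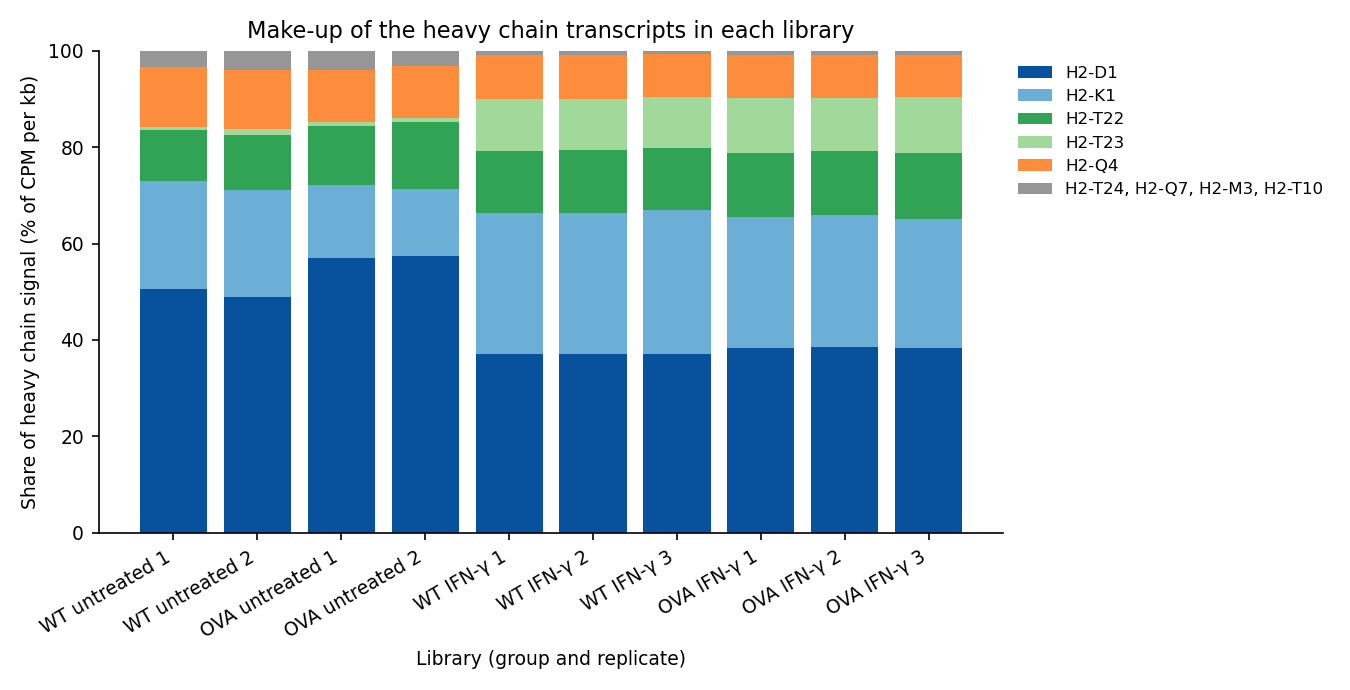
Share of each heavy chain gene in the heavy chain signal of every library, in percent of summed CPM per kb; each bar is 1 library and each colour a gene. H2-D1 takes about equal parts in all treated libraries (37.1% to 38.6%), more in the untreated ones, and H2-T23 is visible after treatment. With H2-T15, which is not among the genes shown, the untreated share of H2-D1 would be lower.

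H2-D1 exceeded H2-K1 per kilobase 2.26-fold and 2.21-fold in the untreated WT libraries and 3.78-fold and 4.13-fold in the untreated OVA libraries. After treatment the ratios were 1.28, 1.27 and 1.25 in WT and 1.42, 1.41 and 1.43 in OVA, so the lines lay closer together but still did not overlap. The ratio of B2m to the summed heavy chains was 3.47 ± 0.0995 in untreated WT, 2.41 ± 0.0453 in treated WT, 4.13 ± 0.00324 in untreated OVA and 2.74 ± 0.0518 in treated OVA. The summed heavy chains went from 40.8 ± 2.17 to 832 ± 18.2 CPM per kb in WT and from 35.5 ± 1.27 to 775 ± 9.12 in OVA. These ratios depend on the lengths used and were not tested. The ratio of B2m to the heavy chains also depends on which genes are summed. H2-T15, left out of the 9, stood at 54.7 CPM in untreated WT, near H2-D1 at 52.5 CPM, and at 21.7 CPM in treated WT. In OVA H2-T15 stood at 48.9 CPM untreated and 20.1 CPM treated. The longest M21 transcript of H2-T15 has 1344 bases against 2102 for H2-D1, so per kilobase H2-T15 would stand above H2-D1 in untreated cells. Adding it would lower the untreated ratios most, and ratios with it were not computed. The fall of the B2m ratio with treatment thus holds for the sum of the 9 chains, and may turn into a rise with H2-T15.

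**Figure D4:**
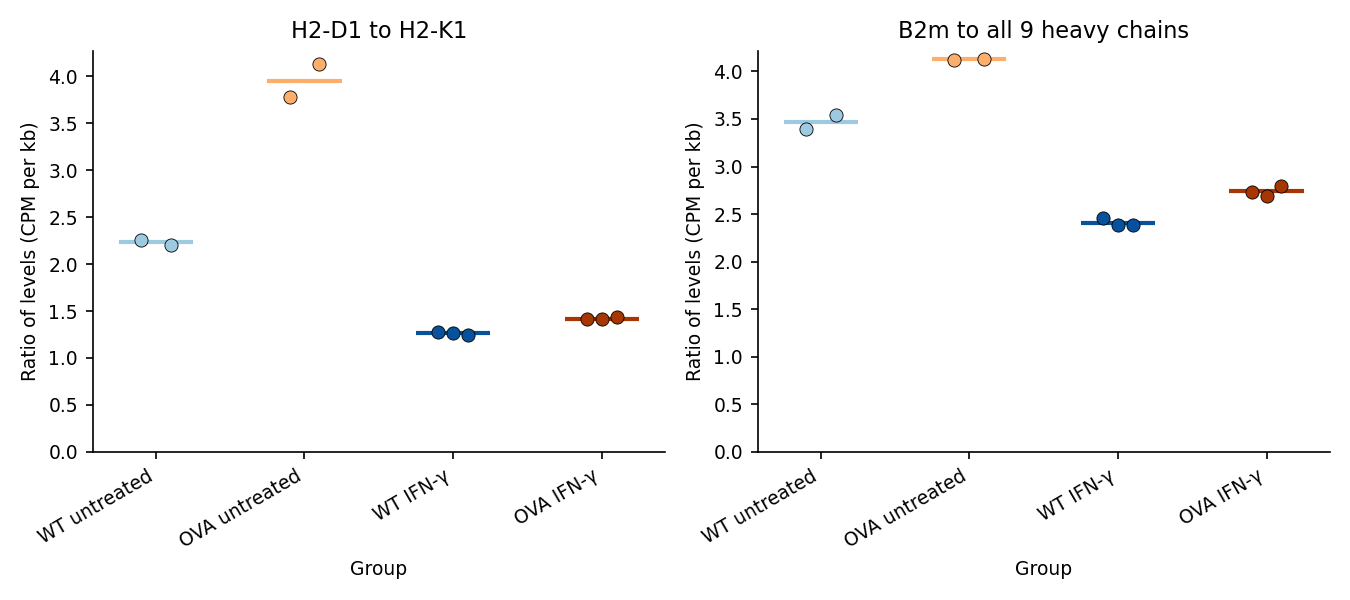
Ratio of H2-D1 to H2-K1 (left) and of B2m to the 9 heavy chains (right), from CPM per kb; points are libraries and lines are group means. Both ratios are lower after treatment, the first running from 1.25 to 1.43 in treated and from 2.21 to 4.13 in untreated libraries. The fall of the second holds for the 9 chains summed, which leave out H2-T15, and may turn with it.

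Between the lines, H2-K1 and H2-Q4 were lower in OVA in both conditions. In untreated cells 2 of the 10 genes were called lower and none higher (0 higher also at an unadjusted p under 0.05 with edgeR, with DESeq2 and with limma-voom), with 2.55% of all tested genes called lower and 2.98% higher. The log2 difference (OVA minus WT) was −0.82 for H2-K1 (SE 0.071, adjusted p = 1.34e-06), a level 0.565-fold that of WT, and −0.42 for H2-Q4 (SE 0.081, adjusted p = 0.00501). The H2-Q4 call was lost when WT untreated replicate 1 was left out (−0.34, adjusted p = 0.130) and when OVA untreated replicate 1 was (−0.38, adjusted p = 0.0692). H2-D1 differed by −0.0029 (95% interval −0.12 to 0.11), B2m by 0.049 (−0.033 to 0.13) and H2-T22 by 0.061 (−0.12 to 0.24), none of them called. The intervals of H2-T23 (−1.11 to 0.23), H2-T24 (−0.93 to 0.21) and H2-Q7 (−0.49 to 1.04) were wider, and those of H2-T10 (−1.47 to 3.25) and H2-M3 (−1.78 to 2.50) too wide to read a difference from.

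In treated cells 2 genes were called lower in OVA and 1 higher, with 7.99% of all tested genes called lower and 6.36% higher. H2-K1 differed by −0.22 (SE 0.029, adjusted p = 7.44e-05), a level 0.859-fold that of WT, and H2-Q4 by −0.13 (SE 0.028, adjusted p = 0.00572). B2m differed by 0.083 (SE 0.027, adjusted p = 0.0466), a call that 7 of 17 alternatives lost, among them RLE scaling (adjusted p = 0.0519) and the fits without any 1 of 6 libraries. Those 6 were WT untreated replicates 1 and 2, WT treated replicates 1 and 2 and OVA treated replicates 2 and 3, with adjusted p from 0.0509 to 0.166. H2-D1 (−0.053), H2-T22 (−0.052), H2-T23 (−0.018), H2-T24 (−0.081), H2-T10 (−0.069), H2-M3 (0.16) and H2-Q7 (−0.55) were not called. The H2-Q7 interval ran from −1.16 to 0.050, and those of H2-D1, H2-T22 and H2-T23 stayed within 0.12 of 0.

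**Figure D5:**
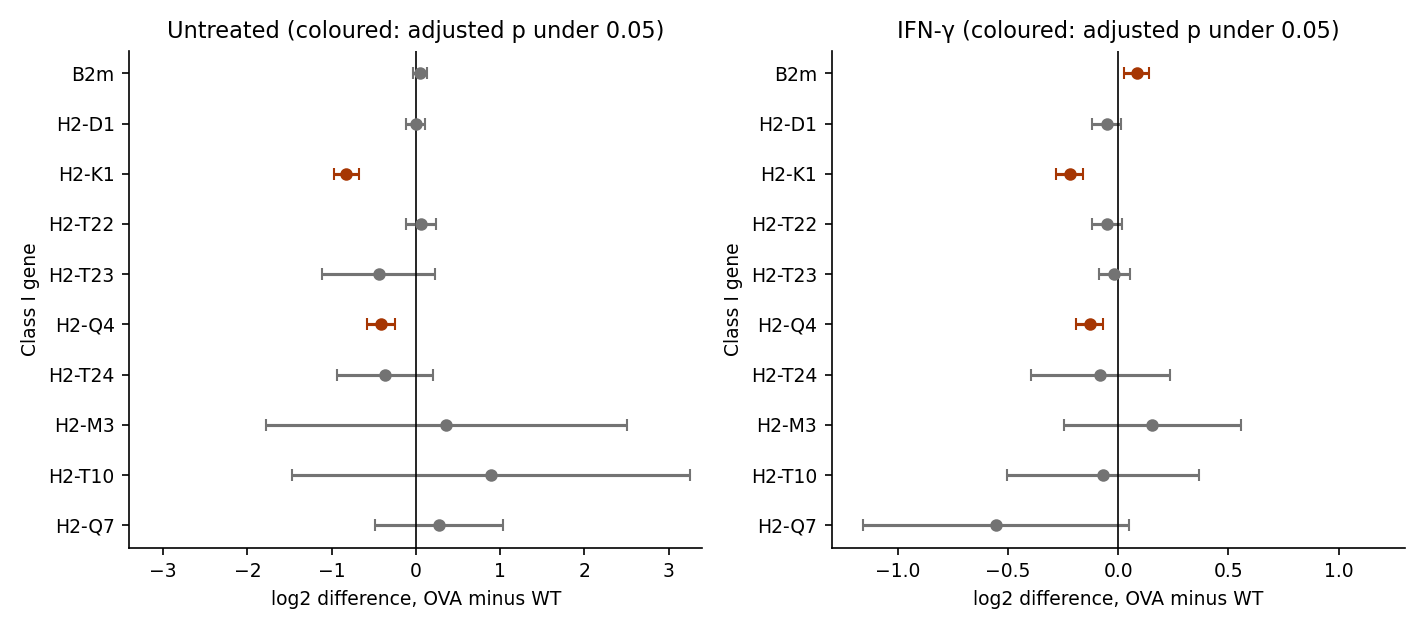
Log2 difference between OVA and WT for each class I gene in untreated (left) and treated (right) cells, on different horizontal scales; bars are 95% intervals and coloured points have an adjusted p under 0.05. H2-K1 lies left of 0 in both, at −0.82 and −0.22, and H2-Q4 at −0.42 and −0.13.

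The rise with IFN-γ differed between the lines for 1 of the 10 genes. For H2-K1 the change was larger in OVA by 0.60 on the log2 scale (SE 0.077, 95% interval 0.44 to 0.77, adjusted p = 0.00105), a ratio of folds of 1.52. Over all tested genes 0.0773% were called with a larger and 0.264% with a smaller change in OVA. The H2-K1 call held in 16 of 16 alternatives, with values from 0.54 to 0.67 and adjusted p up to 0.0251. This difference and the ones between the lines are built from the same libraries: H2-K1 was lower in untreated OVA by more than in treated OVA. For H2-Q4 the difference of responses was 0.29 (95% interval 0.11 to 0.47, adjusted p = 0.229). It was 0.034 for B2m (−0.065 to 0.13), −0.050 for H2-D1 (−0.18 to 0.080) and −0.11 for H2-T22 (−0.30 to 0.079). The intervals for H2-T23 (−0.25 to 1.10), H2-T24 (−0.37 to 0.93), H2-Q7 (−1.80 to 0.15), H2-T10 (−3.36 to 1.44) and H2-M3 (−2.38 to 1.98) were wide, and none of these was called.

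The other genes of the class I route were read from a list of 19, all with enough counts to be tested. In each line 14 were called higher, 3 lower and 2 were not called, with a median log2 change of 5.08 in WT and 4.93 in OVA. Over all tested genes 24.5% were called higher in WT and 25.9% in OVA, and 19.7% and 22.9% lower. The 3 of 19 called lower do not exceed that share. Tap1 and Tap2, which together form the peptide transporter of the endoplasmic reticulum, rose by 8.36 (SE 0.17) and 7.94 (SE 0.22) in WT. Tapbp, which tethers the transporter to the heavy chain, rose by 5.13 (SE 0.043), and Erap1, the peptidase that trims peptides, by 4.78 (SE 0.064). The 3 that fell in WT were the folding factors Calr (−0.35, SE 0.026), Canx (−0.27, SE 0.025) and Pdia3 (−0.11, SE 0.029), and the same genes fell in OVA, by −0.45, −0.33 and −0.26. Pdia3 in WT lost its call when WT untreated replicate 2 was left out (adjusted p = 0.0723). Calr went from 1507 to 1180 CPM and Canx from 1519 to 1259 CPM in WT, so both stayed abundant. Rfxank and Rfxap, subunits of a factor that binds class I and class II promoters, were not called in either line. Rfx5, a further subunit of that factor, was called higher in both, by 1.06 (SE 0.070) in WT and 0.95 (SE 0.068) in OVA.

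Between untreated lines Tap1 was higher in OVA by 1.13 (SE 0.20, adjusted p = 0.00170), at 3.30 ± 0.761 against 1.50 ± 0.173 CPM, while H2-K1 was lower there. Its call was lost without OVA untreated replicate 1 (0.88, adjusted p = 0.0692). Erap1 (0.44) was also called higher, and none of the 19 was called lower (0 lower also at an unadjusted p under 0.05 and by DESeq2 and limma-voom). Over all tested genes 2.98% were called higher and 2.55% lower. Erap1 lost its call when OVA untreated replicate 1 was left out (adjusted p = 0.0517). In treated cells none of the 19 was called by edgeR, where 2 higher and 3 lower had an unadjusted p under 0.05. DESeq2 also called 0, and limma-voom 1 higher and 1 lower. Over all tested genes edgeR called 6.36% higher and 7.99% lower in treated OVA. Tap1 stood at 496 ± 3.97 CPM in WT and 500.5 ± 10.2 CPM in OVA.

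Of 6 class I-like genes outside the MHC (Cd1d1, Mr1, Fcgrt, Hfe, Azgp1 and Procr), none was called higher with IFN-γ in either line by edgeR, DESeq2 or limma-voom. Over all tested genes edgeR called 24.5% higher in WT and 25.9% in OVA, and 19.7% and 22.9% lower. At an unadjusted p under 0.05 edgeR had 1 higher in WT and 0 in OVA. That gene was Cd1d1, which presents lipids to natural killer T cells, with a log2 change of 1.31 in WT (adjusted p = 0.0515) from 3 to 5 counts per untreated library. Fcgrt, the neonatal Fc receptor, fell by 0.54 on the log2 scale in WT and by 0.43 in OVA, and Azgp1, a secreted class I-like protein, fell by 1.79 and 0.70. Hfe, which regulates iron uptake, fell by 0.37 in WT and was at −0.086 in OVA (adjusted p = 0.504). Leaving out WT untreated replicate 1 ended the calls of Fcgrt and Hfe in WT (adjusted p = 0.0613 and 0.140), and leaving out OVA untreated replicate 2 ended that of Fcgrt in OVA (0.264). Azgp1 in OVA was lost in 6 alternatives, among them no filter on low counts (adjusted p = 0.112) and the fits without OVA untreated replicate 2 or OVA treated replicate 2 or 3 (0.0579 to 0.246).

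A further 27 MHC heavy chain entries stood in the table, of which 13 had no counts and 4 could be tested. H2-Q10 rose by 3.72 (SE 0.35) in WT and 3.45 (SE 0.38) in OVA, and H2-Q5 by 4.92 (SE 0.69) and 2.60 (SE 0.41), the latter from 1 to 8 counts per untreated library. H2-Q10 was lower in treated OVA than in treated WT (−0.59, adjusted p = 0.0186), a call lost with DESeq2 (0.0780) and without WT treated replicate 3 (0.0836) or OVA treated replicate 3 (0.0950). H2-K2, by its entry ENSMUSG00000121503, rose by 1.90 (SE 0.13) and 2.45 (SE 0.16). Like H2-K1 it was lower in untreated OVA (−0.79, adjusted p = 0.0174), a call lost without WT untreated replicate 1 or 2 or OVA untreated replicate 1 (adjusted p from 0.0853 to 0.172) and with limma-voom (0.0645). H2-T15 went the other way: it stood at 54.7 ± 2.94 CPM in untreated WT and 21.7 ± 1.70 CPM in treated WT, a log2 change of −1.33 (SE 0.072, adjusted p = 6.95e-11), and in OVA its change was −1.28 (SE 0.074, adjusted p = 1.88e-10). It was called lower in each alternative run.

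Class I genes share sequence, and how the authors treated reads that fit several genes is not given in the sources used here. Of the 50-base windows of the longest M21 transcript, none in B2m, 0.576% in H2-M3, 3.23% in H2-T24 and 8.11% in H2-K1 also occur in another gene. The share was 14.3% for H2-D1, 28.5% for H2-Q7 and 36.9% for H2-Q4, and H2-T23 lay between H2-D1 and H2-Q7. Of the 10 genes H2-T10 and H2-T22 had the highest shares, with 50.1% and 58.5% of windows shared, 30.3% of the H2-T10 windows with H2-T22. For H2-T15, 78.3% of windows were shared, the largest part (40.2%) with Gm6034. For H2-Q5 the share was 35.4% and for H2-Q10 19.7%, the largest part of each with H2-Q7. Levels of H2-T10, H2-T22, H2-Q4, H2-Q7, H2-Q5, H2-Q10 and H2-T15 are uncertain to that extent, as are reads shared with H2-K2, which M21 does not hold under the table's entry.

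Likeness of profile was measured as the root mean square difference of log2 CPM over the 10 libraries, each gene centred on its own mean. H2-D1 and B2m were each other's nearest among the 10 genes (0.069), nearer than any gene outside the set. The nearest outside genes to B2m were Herc6 (0.095), Irf9 (0.104) and Ifit2 (0.111), and those to H2-D1 were C1ra (0.116), Il18bp (0.135) and Irf9 (0.136). For H2-T22 they were Parp12 (0.093), H2-DMb1 (0.136) and Dtx3l (0.139), and for H2-T23 Prph (0.219), H2-Ab1 (0.235) and Tap2 (0.259). For H2-K1 they were Gm17334 (0.159), Pacsin1 (0.174) and 9530082P21Rik (0.226), and for H2-Q4 Gm36043 (0.145), Il18bp (0.158) and Psme2 (0.188). Apod led for both H2-T10 (0.234) and H2-M3 (0.198), Pltp for H2-T24 (0.204) and Gm26982 for H2-Q7 (0.157). Ranking by Pearson correlation in place of this distance named 3 other genes for every one of the 10, so these neighbours depend on the measure.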

How the data were processed

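Poly-A selected RNA from 10 samples of cell lines was sequenced (the extraction protocol speaks of tissue). The file deposited by the authors gives raw counts of reads for each Ensembl gene, made with HISAT2 2.0.5 and featureCounts 1.6.0 on GRCm39, per the submitters' processing notes. Antisense overlaps and paralogs are uncertain, since annotation release, strand setting and handling of multiply mapped reads are not given in the sources used. Testing used R 4.3.3 and edgeR 4.0.16 (two-sided quasi-likelihood F test on TMM-scaled counts after filterByExpr, Benjamini-Hochberg over 15526 genes at 0.05), with all 4 groups in 1 fit and 5 comparisons. Intervals are Wald intervals at 95%. Replicates differed by more than sampling noise (chi-square per degree of freedom 2.08 to 3.76). Class I members, lists and comparisons were chosen with earlier results of these data known. Named genes were all 10 members, up to 4 called genes of each list, with further ones where a count was small, and the 3 nearest profiles per member. Rfx5 was named in addition, beside the uncalled subunits of its factor. Profiles used log2 CPM with a prior count of 2. The code was tested on simulated data. Alternatives were a replicate block, DESeq2 1.42.0, RLE factors, limma-voom 3.58.1, a stricter count filter (1 CPM in 5 samples) or none, fits of the compared groups alone, other thresholds, no division by length and each library left out. The longest transcript as length was added after seeing the data. Some genes of the lists are counted but not reported here by name.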

Additional observations from a re-analysis of the deposited data

Results flagged for a closer look

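The difference of responses between the lines passed the edgeR test for 1 of the 10 class I genes and for 1 of the 19 other genes of the route. Over all tested genes 0.0773% were called with a larger and 0.264% with a smaller change in OVA. The tools differed for the 19 genes: 7 had a smaller change in OVA at an unadjusted edgeR p under 0.05, DESeq2 called 4 and limma-voom 0. A larger change was found for 0 of the 19 by each of these. H2-K1 rose more in OVA than in WT, by 0.60 on the log2 scale (edgeR adjusted p = 0.00105), and its untreated level was the lower one in OVA in both libraries. Tap1 rose less in OVA, with a difference of −1.12 (edgeR adjusted p = 0.0156), and its untreated level was the higher one, with 51 and 70 counts in OVA against 25 and 29 counts in WT. The Tap1 call was lost with limma-voom (adjusted p = 0.119) and in the fits without WT untreated replicate 1 (0.199), WT untreated replicate 2 (0.0735) or OVA untreated replicate 1 (0.319).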

How the results depend on the processing

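Of 832 alternative values of the members' log2 changes and differences, 807 kept their direction and side of the threshold, and all 340 for the response to IFN-γ in either line did so. Of 500 values from fits without 1 library, 15 changed sign, each of them uncalled. The ranges over those fits were −0.13 to 0.028 (H2-D1), −0.0028 to 0.072 (B2m), −0.095 to 0.81 (H2-T23), −0.23 to 0.021 (H2-T22) and −3.93 to 0.73 (H2-M3) for the difference of responses. Between untreated lines they were −0.079 to 0.081 (H2-D1), −0.83 to 0.078 (H2-T23), −0.071 to 0.19 (H2-T22), −0.019 to 4.08 (H2-T10) and −0.58 to 4.08 (H2-M3), and between treated lines −0.12 to 0.010 (H2-T10) and −0.20 to 0.041 (H2-T24). Without a filter H2-D1 differed by 0.0017 between untreated lines. Asking for at least 2-fold left 0 members in the difference of responses, 0 lower between untreated lines, and 0 lower and 0 higher between treated lines. The 1 member higher in treated OVA (B2m) fell to 0 with RLE factors and at an adjusted p under 0.01, and ran from 0 to 1 without 1 library, while the members lower between untreated lines ran from 1 to 2. The fitted changes of H2-T10 and H2-M3 in WT reached 8.80 and 8.97 without WT untreated replicate 1, which leaves untreated WT with no counts.

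Of 916 alternative values for called genes of the other lists, 28 lost the call and 0 changed sign. The ratio of B2m to the heavy chains (untreated WT, treated WT, untreated OVA, treated OVA) was 1.08, 0.733, 1.29 and 0.835 without division by length, and 2.77, 1.89, 3.36 and 2.16 with the longest transcript, in the same order of groups. With the longest transcript H2-K1 took 36.1% and H2-D1 35.7% of the treated WT signal.

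The libraries gave no sign of pairing by replicate number. Over 13 pairs of libraries with the same number, deviations from the group means correlated at −0.072 to 0.035. Over 24 pairs with different numbers they correlated at −0.071 to 0.106. In groups of 2 libraries the deviations mirror each other, so these values are not independent and cannot show whether samples were handled in pairs. With the replicate number as a block, 9 members were called higher in each line and the H2-K1 difference of responses was 0.60 (adjusted p = 0.000666), with no member's call changed. Depth limits H2-T10 and H2-M3, with 0 to 3 counts per untreated library, and H2-Q7.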
